A study of Mus musculus with 12 samples.

Results

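The immune transcript profiles of Pan02 tumors grown in mice with and without the receptor Sirpα were compared after irradiation (IR) and without it. The comparison rests on 4 of the 12 samples of the series, namely Pan02 tumors of irradiated Sirpα-KO mice, irradiated wild-type (WT) mice, Sirpα-KO mice without IR and WT mice without IR. All 561 genes of the NanoString Mouse Immunology Panel that remained after the 14 control probes were dropped were compared, KO against WT within each IR state, and the genes were then sorted by whether the difference ran the same way in both states or switched. The 8 other samples are MC38 and KPC tumors of the same 2 genotypes and IR states.

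All mice were C57BL6, with an age given for the samples as 6 to 8 weeks. The study's methods give an older age range, for adult male and female mice. The genotype is that of the host: Sirpα-KO mice lack the receptor in all their cells, and the implanted Pan02 cells, a mouse pancreatic carcinoma line, were the same in both genotypes. Irradiated tumors received a single 8 Gy X-ray fraction. The tumor size at treatment is given as 250 to 300 mm3 in the study's design text and as over 200 mm3 in the sample labels. Tumors were taken at 12 and 18 h, 2 mice at each time, and the RNA of the 4 mice was pooled, so that each condition is 1 pooled sample of which 100 ng was measured. With 1 sample per condition there is no spread between mice in these data, and the times cannot be separated. In such bulk RNA, fewer cells of a type and less RNA per cell cannot be told apart. The transcript of the deleted gene was not analysed here, so the genotype labels were not checked against it. The panel carries 2 epithelial markers from the list used (Muc1 and Ceacam1), both under 50 in all 4 samples, so the carcinoma label could not be checked by them, whereas the macrophage transcripts C1qa and C1qb were at 733 or more in every sample.

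Sirpα is an inhibitory receptor of macrophages, monocytes, dendritic cells and neutrophils. When it binds CD47, the "don't eat me" ligand present on most cells, phosphatases recruited to its cytoplasmic tail dampen phagocytosis and inflammatory signaling. Irradiated tumor cells release nucleic acids and other danger signals that can switch on interferon and NF-κB responses in these myeloid cells, which is the setting in which the genotypes were compared.

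The unit throughout is the normalized count of the nCounter assay, a direct count of barcoded probes. A gene was considered in a state when the larger of its KO and WT values was at least 50, and a ratio was written as log2((KO + 10)/(WT + 10)), which understates the change of low genes. The ± after such a ratio is the 95% half-width from counting error alone and says nothing about variation between mice. A difference was called by size when it reached 2-fold (a log2 ratio of 1 in either direction). The 4 samples were unlike in ways that touch every result. The normalized value of 1 count was 2.42 and 2.48 in the KO samples, with and without IR, against 0.814 and 0.590 in the WT samples, so KO tumors were measured with fewer counts (93604 and 79209 net counts, against 292410 and 403442). In the irradiated KO sample 115 genes were under 50, against 255 in the irradiated WT sample, and 278 (KO) against 257 (WT) without IR. The 20th percentile of its values was 49.5, against 4.07 in irradiated WT, with 6.20 in KO and 5.31 in WT without IR. The 14 reference genes summed to 43973 in all 4 samples, which shows that the values had been scaled to that sum. Gapdh made up 47.0% of it in irradiated KO and 27.0% in irradiated WT tumors, and 47.8% in KO and 38.5% in WT tumors without IR. Of the 14 reference genes, 12 were lower in KO with IR and 11 without. Since the sum is fixed, the larger Gapdh share in KO leaves a smaller sum to the other 13, so this count is not a separate difference. The part of depth, of the raised low end of the irradiated KO sample and of the scaling in the differences below was not tested beyond the alternative scalings given beside them.

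**Figure D1:**
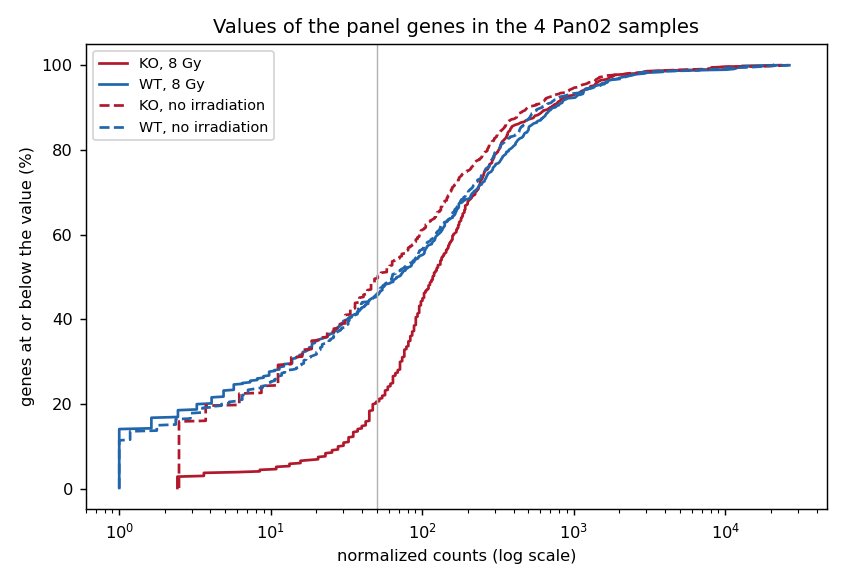
Share of the 561 panel genes (y axis, %) at or below each normalized count (x axis, log scale) in the 4 Pan02 samples, 1 line per pooled sample, red for KO and blue for WT, solid for 8 Gy and dashed for no irradiation, with a grey line at 50. The irradiated KO sample stands to the right at the low end, with 115 genes under 50 against 255, 278 and 257 in the others, while the 4 lines run close together at high counts.

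Of 314 genes considered in both states, 3 were at least 2-fold higher in KO in both (0.955%), 1 was at least 2-fold lower in both (0.318%), 1 was lower without IR and higher after it (0.318%), and 0 did the reverse. The genes higher in both were Cxcl12, Cd163 and Serping1, the gene lower in both was Ctsc, and the gene that switched was Mx1. The shares are those of the whole panel under the same rule, so these 5 genes are the complete list and not a selection from it.

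Cxcl12, the chemokine that retains and attracts CXCR4-bearing lymphocytes and myeloid cells, was at 329.85 in irradiated KO against 38.2 in irradiated WT tumors, and at 246.9 in KO against 33.0 in WT tumors without IR. Both KO values were above both WT values. The log2 ratio was 2.82 ± 0.40 with IR and 2.58 ± 0.40 without, or 8.63-fold and 7.47-fold on the values themselves. Its receptor transcript Cxcr4 was at 122 (KO) against 131 (WT) after IR and at 48.4 (KO) against 164 (WT) without IR.

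Serping1 encodes the C1 inhibitor, the serpin that blocks the initiating proteases of the classical complement pathway. It was at 272 in irradiated KO against 88.7 in irradiated WT tumors, and at 299 in KO against 101 in WT tumors without IR. IR left it nearly where it was in either genotype, and the genotypes stood 3.07-fold apart with IR and 2.96-fold apart without (log2 ratios 1.51 ± 0.35 and 1.48 ± 0.32).

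Cd163 is the hemoglobin scavenger receptor used as a marker of tissue macrophages with an anti-inflammatory phenotype. Its values were 112 in irradiated KO against 4.07 in irradiated WT tumors, and 63.3 in KO against 5.31 in WT tumors without IR. Both WT values lie near the bottom of the assay, and the log2 ratios (3.12 ± 0.53 and 2.26 ± 0.58) rest on them. With values under 50 set to 50 its log2 ratio without IR was 0.29.

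Ctsc encodes cathepsin C, the lysosomal dipeptidyl peptidase that activates the granule serine proteases of neutrophils, mast cells and cytotoxic lymphocytes. It was at 371 in irradiated KO against 1159 in irradiated WT tumors, and at 455 in KO against 1516 in WT tumors without IR. All 4 values are well above background, and both KO values were under both WT values. WT tumors carried 3.13-fold as much as KO with IR and 3.33-fold as much without (log2 ratios −1.62 ± 0.23 and −1.71 ± 0.21). Among the 199 genes with all 4 values at least 100, it was the only one at least 2-fold different in both states. With the samples set to one geometric mean of the reference genes, or to one sum of the 13 other than Gapdh, S100a8 joined it on the higher side.

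Mx1, an interferon-induced GTPase with antiviral activity, was at 1432 in irradiated KO against 146 in irradiated WT tumors, and at 63.3 in KO against 158 in WT tumors without IR. The irradiated KO sample stood far above the other 3, and the KO sample without IR was the lowest of the 4. Within KO tumors the irradiated sample was 4.30 log2 units above the sample without IR, whereas within WT tumors the same difference was −0.10. The KO over WT log2 ratio was 3.20 ± 0.23 with IR and −1.20 ± 0.51 without, a difference of 4.40 between states for which these 4 samples leave no test. The deficit without IR depends on scaling: the ratio was then −0.998 with the samples set to one geometric mean of the reference genes and −0.99 with the sum of the 13 reference genes other than Gapdh, the direction kept and the fold limit just missed.

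**Figure D2:**
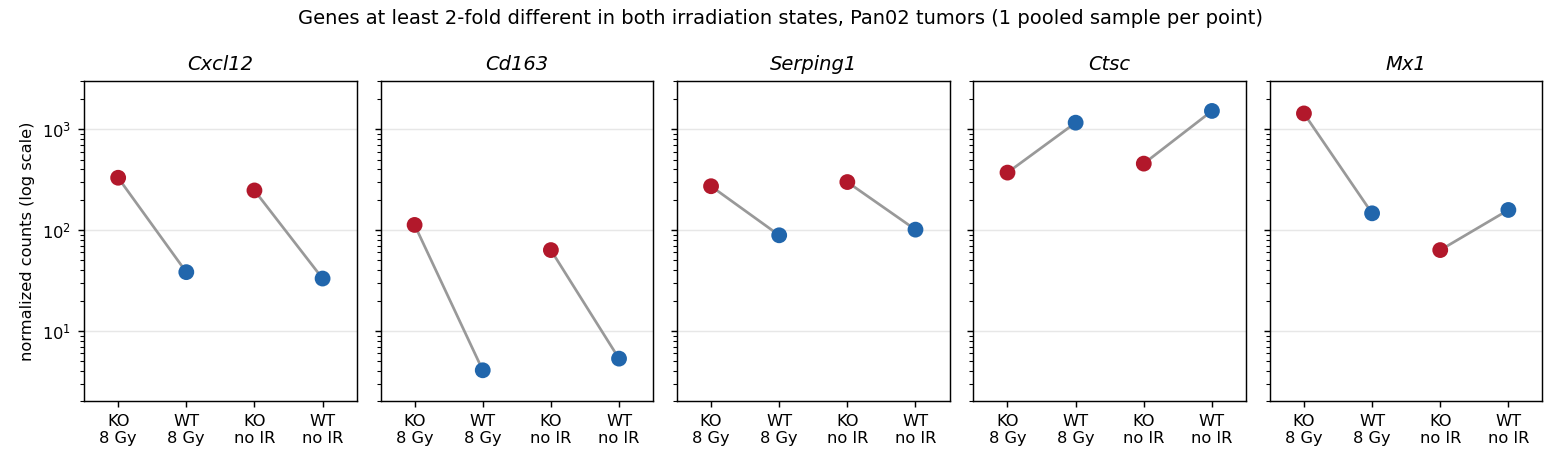
Normalized counts (y axis, log scale) of the 5 genes at least 2-fold different in both IR states, in each of the 4 pooled Pan02 samples, with red points for KO, blue points for WT and a line joining the 2 genotypes of a state. Cxcl12, Cd163 and Serping1 slope down to WT in both states, Ctsc slopes up in both, and Mx1 slopes down with 8 Gy (1432 against 146) and up without (63.3 against 158).

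RefSeq sequence for the 250 bases before the transcription start (assembly GRCm38.p6) was at hand for the 2 genes with the largest KO excess in both states and for the 1 with the KO deficit. They are shown so that the promoters of genes that moved in opposite directions can be set side by side, at chr6:117168285-117168534 on the plus strand for Cxcl12, chr6:124304401-124304650 on the plus strand for Cd163 and chr7:88277835-88278084 on the plus strand for Ctsc. Capitals mark matches on either strand to the motifs described after them.
Cxcl12: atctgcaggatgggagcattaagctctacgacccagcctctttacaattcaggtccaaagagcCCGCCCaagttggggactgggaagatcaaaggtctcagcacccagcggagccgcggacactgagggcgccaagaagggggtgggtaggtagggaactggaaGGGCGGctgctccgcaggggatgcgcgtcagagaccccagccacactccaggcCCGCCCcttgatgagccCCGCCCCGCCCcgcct
Cd163: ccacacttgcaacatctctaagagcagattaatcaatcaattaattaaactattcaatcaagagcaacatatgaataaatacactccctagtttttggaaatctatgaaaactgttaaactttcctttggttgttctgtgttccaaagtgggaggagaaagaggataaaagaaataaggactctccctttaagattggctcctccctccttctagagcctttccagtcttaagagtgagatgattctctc
Ctsc: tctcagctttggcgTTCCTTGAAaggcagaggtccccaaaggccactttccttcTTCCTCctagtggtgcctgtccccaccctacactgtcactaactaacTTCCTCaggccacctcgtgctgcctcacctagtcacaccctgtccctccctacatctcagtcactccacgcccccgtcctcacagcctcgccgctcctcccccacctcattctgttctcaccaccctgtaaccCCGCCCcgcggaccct

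The letters searched on both strands were GAAANNGAA for the core of the interferon-stimulated response element, TTCNNNGAA for the STAT-binding GAS element, GGGNNNTCC for a core of NF-κB sites, GAGGAA for PU.1, the myeloid lineage factor, and GGGCGG for the GC box. Of 32851 promoters of the same length in the table, 7.13% held the first, 7.02% the second, 15.2% the NF-κB letters, 23.3% the PU.1 letters and 32.7% the GC box. The Cxcl12 promoter held 5 GC boxes, the last 2 of which overlap by a base. The Ctsc promoter held 1 GAS match, 2 PU.1 matches and 1 GC box. The Cd163 promoter held none of the letters, and neither the letters of the interferon-stimulated response element nor the NF-κB letters were in any of the 3. These are matches of letters within this window and say nothing about binding in these tumors.

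To use the 2 states together, the log2 values of the 450 genes that reached 50 in at least 1 of the 4 samples were fitted with limma, with terms for genotype and IR, and p-values were adjusted by Benjamini-Hochberg over the 450 genes. Here the 2 states take the place of replicates, and the error is not a spread between animals. Each gene has 1 residual degree of freedom, from the disagreement of its KO effect between states. With the variance trend the prior degrees of freedom were infinite, so the error of a gene was the value of the trend over all genes at its level, and its own disagreement between states had no weight. An exact permutation of 2 against 2 samples that ignores the pairing by state cannot give a two-sided p below 0.333, and one that keeps the pairing has fewer arrangements. The adjusted p was under 0.05 for 4 genes higher in KO (0.889% of those tested) and 13 lower (2.89%), and the unadjusted p was under 0.05 for 16 and 44. The balance depends on scaling. With the geometric mean of the reference genes it was 9 higher and 1 lower, with the median ratio 8 and 1, and with the sum of 13 reference genes 7 and 1. Each of these kept all 4 of the higher genes, and Ctsc as the only lower one. Without the limma variance trend, when a gene's own disagreement counts as well, 0 genes passed in either direction (7 and 1 at an unadjusted p under 0.05). With 1 sample left out, Ctsc passed only without the irradiated WT sample (limma adjusted p = 0.000323) and Cxcl12 only without the KO sample that was not irradiated (limma adjusted p = 0.0353).

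The 4 genes that rose in KO were Cxcl12 (log2 fold change 2.70, SE 0.50, limma adjusted p = 2.69e-05), Serping1 (1.496, SE 0.38, adjusted p = 0.00597), Ptgs2 and S100a8. Ptgs2, the inducible cyclooxygenase that makes prostaglandin E2, was at 1089 in irradiated KO against 906 in irradiated WT tumors, and at 932 in KO against 349 in WT tumors without IR. The WT sample without IR was the low one, and the KO excess came mostly from that state (log2 ratio 0.26 ± 0.16 with IR and 1.39 ± 0.18 without). It passed limma (adjusted p = 0.00597) with an error taken from the trend, and its adjusted p was 0.693 without the trend. S100a8, a subunit of the neutrophil and monocyte alarmin calprotectin, was at 1386 (KO) against 801 (WT) with IR and at 907 (KO) against 526 (WT) without. The ratio was 0.78 in each state (±0.15 with IR and ±0.17 without, limma adjusted p = 0.00625). S100a9, which encodes the other calprotectin subunit, was at 1272 (KO) against 837 (WT) with IR and at 634 (KO) against 472 (WT) without, and missed the threshold (adjusted p = 0.16 by limma). Cd163 (adjusted p = 0.397) and Mx1 (adjusted p = 0.0507) also missed it in limma, the first with an SE of 1.41 and the second with a fold change over both states of 1.003 that averages opposite differences. The call of Mx1 depends on the setting, since its limma adjusted p was 0.0113 with the geometric mean of the reference genes, 0.0224 with the median ratio, 0.0089 with a pseudocount of 50 and 0.0571 with the sum of 13. In a limma fit of all 12 samples Cd163 passed (adjusted p = 0.0213) and Mx1 did not (0.479).

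Ctsc had the smallest p of the 13 genes that fell in KO (log2 fold change −1.67, SE 0.21, limma adjusted p = 2.98e-12). The others included Emr1, which encodes the macrophage marker F4/80. It was at 366 in irradiated KO against 504 in irradiated WT tumors, and at 148 in KO against 482 in WT tumors without IR, so the KO sample without IR was the low one (log2 ratios −0.45 ± 0.25 and −1.64 ± 0.36). Cx3cr1, the fractalkine receptor of monocytes and resident macrophages, was also lower in KO, with the larger gap after IR, at 190 (KO) against 493 (WT) with IR and 145 (KO) against 276 (WT) without, the irradiated WT sample being the high one. Ly86 (MD-1, a partner of the Toll-like receptor homolog RP105) was at 366 (KO) against 609 (WT) with IR and 182 (KO) against 491 (WT) without. Cybb, the catalytic subunit of the phagocyte NADPH oxidase, was at 499 (KO) against 578 (WT) with IR and 212 (KO) against 654 (WT) without. The remaining genes that fell were H2-Eb1 and H2-Ab1 (MHC class II chains), Vcam1 (a vascular adhesion molecule), Fcgr2b (the inhibitory Fc receptor), Ccl12 (a monocyte chemokine), and Ctnnb1, App and Oaz1 (β-catenin, the amyloid precursor and a reference gene of the panel), with fold changes of −1.09 to −0.59. These 12 other genes lost the call under each of the 3 other scalings.

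**Figure D3:**
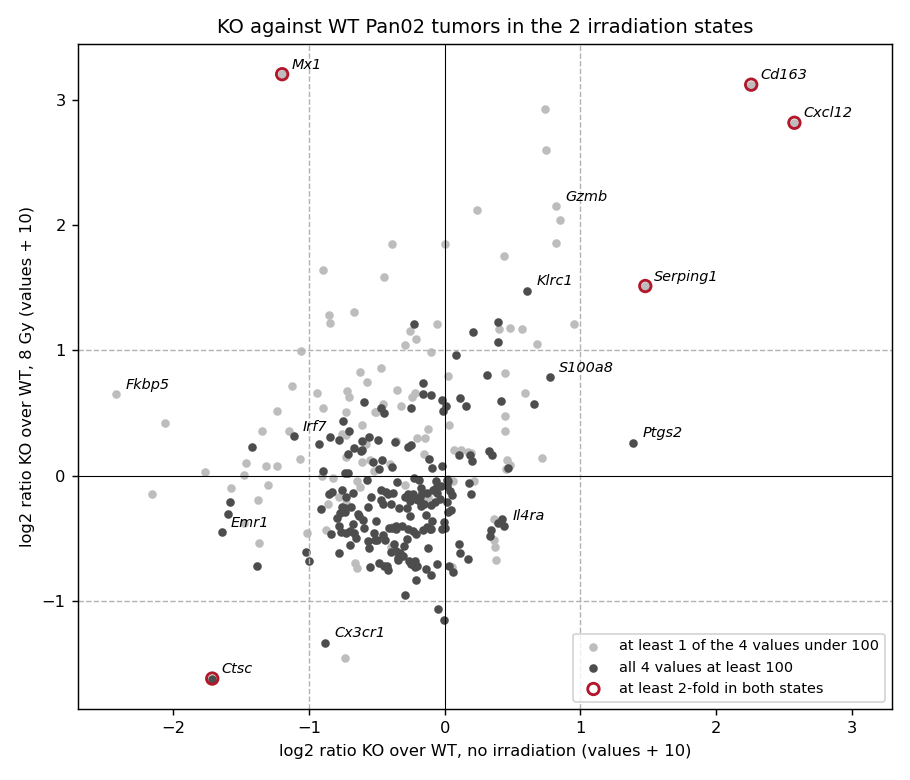
log2 ratio KO over WT with 8 Gy (y axis) against that without irradiation (x axis) for the 314 genes considered in both states, 1 point per gene, dark where all 4 values were at least 100, with dashed lines at the 2-fold limits and red rings on the 5 genes past them in both states. Points at least 2-fold up with 8 Gy are mostly light grey, and the dark cloud is centred below 0 on both axes (medians −0.23 with 8 Gy and −0.28 without).

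A looser rule asked only that the counting interval of the ratio lie off 0 in both states. It placed 21 genes higher in both (6.69%), 71 lower in both (22.6%), 28 lower without IR and higher after it (8.92%), and 4 the other way (1.27%). The 21 higher in both were Bst1, C1s, Ccl3, Ccl8, Cd14, Cd163, Cd8a, Clec4e, Cxcl12, Cxcr6, Gapdh, Gzmb, Ifitm1, Il7r, Klrc1, Klrd1, Prf1, Ptgs2, S100a8, S100a9 and Serping1. Killer cell genes recur among them: granzyme B, perforin and the CD94/NKG2A chains Klrd1 and Klrc1. Other killer cell genes did not follow: Gzma was among the 28 lower without IR and higher after it, and Klrk1 was lower in both by sign. By sign alone, whatever the size, 194 of the 314 genes ran the same way in both states: 146 were lower in both (46.5%) and 48 higher in both (15.3%). A further 92 were lower without IR and higher after it (29.3%), and 28 the reverse (8.92%). Among the 199 genes with all 4 values at least 100, 123 were lower in both (61.8%), 19 higher in both (9.55%), 37 lower without and higher after IR (18.6%) and 20 the reverse (10.1%). These shares are the background of the counts of list members given next.

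Effector genes of cytotoxic T and NK cells were mostly higher in KO. Of 13 measured, 6 were considered in both states, and 4 of these were higher in both, 1 lower in both and 1 lower without and higher after IR. Their median log2 ratio was 1.39 with IR and 0.50 without, against −0.08 and −0.33 over the 314 genes. Panel genes with a mean of 50 to 200, the range of several members, had medians of 0.61 with IR and −0.34 without. Gzmb was at 233 in irradiated KO against 44.8 in irradiated WT tumors, and at 113 in KO against 59.6 in WT tumors without IR. Prf1, the pore-forming perforin, was at 144 (KO) against 32.5 (WT) with IR and 68.2 (KO) against 34.2 (WT) without. Klrd1, the best measured of them together with Klrc1, was at 332 (KO) against 154 (WT) with IR and 314 (KO) against 237 (WT) without, and Klrc1 at 342 (KO) against 116 (WT) with IR and 244 (KO) against 157 (WT) without. Both KO values of each of these 4 genes were above both WT values. Klrk1, the activating receptor NKG2D, was the 1 lower in both, at 68.9 (KO) against 74.0 (WT) with IR and 110.42 (KO) against 176 (WT) without. Gzma, granzyme A, was the 1 lower without IR and higher after it. The share higher in both over all genes was 15.3%. None of the 11 tested genes of the list passed limma with the deposited scaling and a pseudocount of 10. Klrc1 passed with the geometric mean of the reference genes, the median ratio or a pseudocount of 50, and Gzmb with the median ratio or all 12 samples.

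T cell markers were mostly higher in KO as well. Of 19 measured, 6 were considered in both states, 5 were higher in KO in both, and their median log2 ratio was 1.18 with IR and 0.32 without, against 15.3% of all genes higher in both. None of the 19 had all 4 values at least 100. All panel genes with a mean of 50 to 200 had a median of 0.61 after IR (198 genes) and −0.34 without (145 genes), so the raised low end of the irradiated KO sample stands beside the value after IR. Cd8a, the CD8 co-receptor, was at 173 in irradiated KO against 78.1 in irradiated WT tumors and at 80.7 in KO against 46.6 in WT tumors without IR, and Cd3e, a chain of the T cell receptor complex, at 158 (KO) against 64.3 (WT) and 80.7 (KO) against 54.9 (WT). Without IR the gaps of Cd3e and Cd3d were within counting error (0.48 ± 0.51 and 0.40 ± 0.42). Cxcr6, a homing receptor of effector T and NKT cells, was at 173 (KO) against 106 (WT) with IR and 148 (KO) against 94.4 (WT) without. With each other scaling tried, 6 of 6 T cell markers were higher in both states. None of the 12 tested passed limma.

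Macrophage and monocyte markers mostly ran lower in KO, further below the whole panel without IR than after it. Of 17 measured, 16 were considered in both states, 13 of them lower in both, against 46.5% of all genes, and 2 higher in both. By limma 4 of the 16 tested fell (Emr1, Cybb, Cx3cr1 and Fcgr2b). The summed level of the list was 11074 in irradiated KO against 13219 in irradiated WT tumors, and 7004 in KO against 11389 in WT tumors without IR. Its median log2 ratio was −0.24 with IR and −0.69 without. Of its 12 members with all 4 values at least 100, 11 were lower in both states, against 61.8% of all such genes. Their median was −0.25 with IR, next to −0.23 over the 199 genes, and −0.72 without IR, where the 199 genes had −0.28. The complement subunits C1qa and C1qb, made by macrophages, had ratios of −0.25 and −0.26 with IR and −0.69 and −0.74 without, and Itgam, the CD11b integrin, −0.54 ± 0.42 and −1.37 ± 0.52. The 2 exceptions higher in both were Cd163 and Cd14, the co-receptor for lipopolysaccharide, which was at 224 (KO) against 93.6 (WT) with IR and 172 (KO) against 113 (WT) without. The deficit after IR depends on scaling: 6 of 16 were lower in both states with the geometric mean of the reference genes and 4 of 16 with the sum of 13, and the median after IR was then 0.04 and 0.22. Without IR the median stayed below 0 under each scaling, from −0.69 to −0.38.

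MHC class II presentation genes were lower in KO in both states for 7 of the 8 considered, 7 of them with all 4 values at least 100, against 46.5% of all genes and 61.8% of those so measured. H2-Eb1, a class II β chain, was at 883 in irradiated KO against 1352 in irradiated WT tumors and at 1197 in KO against 2437 in WT tumors without IR (limma adjusted p = 0.00199). Cd74, the invariant chain, was at 10252 (KO) against 12963 (WT) with IR and 8118 (KO) against 14081 (WT) without. The list's median was −0.45 with IR and −0.58 without, beside −0.40 and −0.21 for the reference genes of the panel, and with the sum of 13 reference genes 0.01 and −0.36. H2-DMb2, a peptide-loading chain, was the exception and switched, at 175 (KO) against 120 (WT) with IR and 88.1 (KO) against 130 (WT) without. Among MHC class I genes, B2m, the light chain, had ratios of −0.23 ± 0.04 with IR and −0.10 ± 0.03 without. Tap1, the peptide transporter, was the 1 member past 2-fold without IR (314 in KO against 857 in WT), and with IR it was at 816 (KO) against 693 (WT).

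Dendritic cell markers were few at measurable levels. Of 9 measured, 5 were considered in both states, with a median of −0.30 with IR and −1.01 without. The deficit after IR depends on scaling, with a median of −0.03 with the geometric mean of the reference genes and 0.14 with the sum of 13. Without IR the median stayed below 0 under each scaling, from −1.01 to −0.73. Itgax, the CD11c integrin, was at 255 in irradiated KO against 316 in irradiated WT tumors and at 105 in KO against 339 in WT tumors without IR, the KO sample without IR being the low one again. Irf8, a transcription factor of the dendritic and monocyte lineages, was at 112 (KO) against 104 (WT) with IR and 26.05 (KO) against 89.7 (WT) without.

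Neutrophil markers and chemokines were led by the calprotectin genes, and 3 of the 5 considered in both states were higher in both, against 15.3% of all genes. The median of the 5 was 0.12 with IR and 0.42 without. The chemokine Cxcl15 was higher without IR and lower after it. Csf3r, the G-CSF receptor, did not follow, at 139 (KO) against 141 (WT) with IR and 48.4 (KO) against 93.2 (WT) without. Among monocyte chemokines the members split. Ccl8, a ligand of several CC receptors, was at 1011 (KO) against 678 (WT) with IR and 1235 (KO) against 781 (WT) without, and Ccl3, an attractant of monocytes and T cells, at 185 (KO) against 37.4 (WT) and 123 (KO) against 63.7 (WT). Ccl12, which acts on CCR2, fell in KO, at 180.03 against 510.14 in WT with IR and 98.02 (KO) against 169 (WT) without (limma adjusted p = 0.0397). Ccl2, another CCR2 ligand, was at 277 (KO) against 325 (WT) with IR and 83.1 (KO) against 159 (WT) without.

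TGF-β ligands, receptors and matrix genes had the lowest median after IR of the lists with at least 4 members considered in both states. Of 13 considered, 9 were lower in both, and the median was −0.66 with IR and −0.36 without. The count is no mark of the list, since 9 of 13 reference genes were also lower in both (medians −0.40 and −0.21), and of the 10 members with all 4 values at least 100 it was 8, against 61.8% of all such genes. Fn1, fibronectin, was at 7623 in irradiated KO against 12396 in irradiated WT tumors and at 5594 in KO against 6647 in WT tumors without IR. Tgfb1 was at 388 (KO) against 657 (WT) with IR and 344 (KO) against 379 (WT) without, and Tgfbr1, its type I receptor, at 369 (KO) against 628 (WT) and 423 (KO) against 568 (WT). For Fn1 and Tgfb1 the irradiated WT sample was the high one, and for Tgfbr1 both WT samples were above both KO samples. Under the other scalings the median after IR ran from −0.53 to −0.21, the same direction, with 5 or 6 of 13 lower in both. None of the 13 passed limma with the deposited or the other scalings at a pseudocount of 10. Tgfbi passed as lower in KO with a pseudocount of 1 and with values under 50 set to 50.

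**Figure D4:**
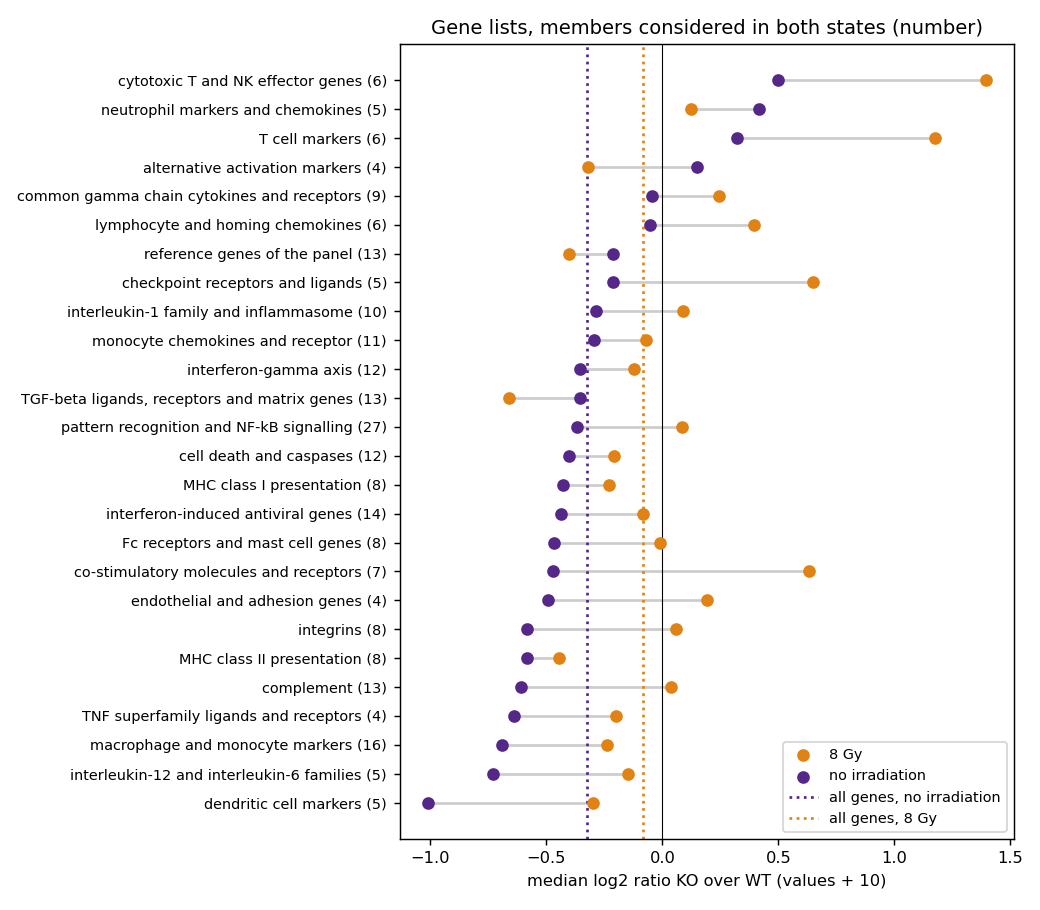
Median log2 ratio KO over WT (x axis) of each gene list with at least 4 members considered in both IR states (number in parentheses), orange for 8 Gy and purple for no irradiation, with dotted lines at the medians of all 314 genes and no error bars since each state is 1 sample against 1. Cytotoxic genes, T cell markers and neutrophil genes lie right of 0 in both states, macrophage, dendritic cell and MHC class II genes left of 0 in both, and TGF-β genes are furthest left with 8 Gy (−0.66). All medians are those of the deposited scaling.

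The 28 genes that were lower in KO without IR and higher after it, by counting intervals, were Btla, C4a, C6, Ccl5, Cd80, Cd86, Cfb, Cradd, Cxcl10, Cxcl9, Ebi3, Fcer1g, Fcgr4, Fkbp5, Gzma, H2-DMb2, Il16, Il1r2, Irak2, Irf7, Irgm1, Itga4, Mr1, Mx1, Nfkbia, Tap1, Tlr8 and Tnfsf10. By sign alone 29.3% of all genes ran this way. Cxcl10, an interferon-induced attractant of CXCR3-bearing T cells, was at 675 in irradiated KO against 462 in irradiated WT tumors and at 207 in KO against 290.3 in WT tumors without IR. Cxcl9, of the same family, was at 1630 (KO) against 1369 (WT) with IR and 1110.44 (KO) against 2116 (WT) without, and Irf7, the factor that amplifies type I interferon, at 298 (KO) against 238 (WT) and 140.2 (KO) against 314 (WT). In each of these the KO sample without IR was the lowest of the 4.

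Irgm1, an interferon-γ-induced GTPase, was at 2843 (KO) against 2335 (WT) with IR and 1582 (KO) against 2224 (WT) without. The co-stimulatory ligands Cd80 and Cd86 were at 180.03 and 139 (KO) against 103 and 86.2 (WT) with IR, and at 78.2 and 53.4 (KO) against 121 and 93.2 (WT) without. Tnfsf10 (TRAIL, a death ligand) was at 224 (KO) against 107 (WT) with IR and 58.3 (KO) against 132 (WT) without. None of the 28 genes passed limma with the deposited scaling and a pseudocount of 10, where the genotype term averages the states, and Mx1 passed under the settings given above. The largest gap without IR was that of Fkbp5, a glucocorticoid-induced co-chaperone, at 127 (KO) against 77.3 (WT) with IR and 53.4 (KO) against 329 (WT) without, where the WT sample without IR was the high one. Ebi3, a subunit of interleukin-27 and interleukin-35, was at 146 (KO) against 107 (WT) with IR and 18.6 (KO) against 109 (WT) without.

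Over the whole list of interferon-induced antiviral genes, Mx1 was not typical. Of 14 genes considered in both states, 5 were lower without and higher after IR (29.3% over all genes), 6 were lower in both, 1 was higher in both and 2 were higher without and lower after. The median was −0.09 with IR and −0.44 without. Bst2 (tetherin), for instance, was at 1499 (KO) against 1665 (WT) with IR and 1847 (KO) against 1781 (WT) without. Ifitm1, an interferon-induced membrane protein, was at 255 (KO) against 103 (WT) with IR and 267 (KO) against 201 (WT) without, and was the 1 gene higher in both. These counts and the sign of the median after IR depend on scaling. With the geometric mean of the reference genes, 4 of 14 were higher in both and 1 lower in both, and likewise with the sum of 13. The median after IR was then 0.19 and 0.37, and it was 0.05 with the median ratio.

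The 4 genes higher without IR and lower after it were Ahr, Il1rn, Il4ra and Src. Il4ra, the interleukin-4 receptor chain, was at 772 in irradiated KO against 1020.29 in irradiated WT tumors and at 1001 in KO against 737 in WT tumors without IR. Il1rn, the interleukin-1 receptor antagonist, was at 289 (KO) against 408 (WT) with IR and 287 (KO) against 225 (WT) without. Ahr (the aryl hydrocarbon receptor) was at 296 (KO) against 402 (WT) and 351 (KO) against 276 (WT). For Il1rn the KO samples lay close together and the WT samples apart, and for all 3 the irradiated WT sample was the highest of the 4. The ratio of Ahr after IR was −0.43 ± 0.28, beside a median of −0.40 over the reference genes considered in both states. With the sum of 13 reference genes the median of the 199 genes after IR rose from −0.23 to 0.23. The sign of such small deficits can therefore depend on scaling.

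State by state, the counts past 2-fold were unequal. Without IR, 5 of 316 genes were at least 2-fold higher in KO (1.58%) and 30 lower (9.49%). After IR, 146 of 448 were higher (32.6%) and 5 lower (1.12%). Of the 146, 128 had an irradiated WT value under 50, where the low end of the irradiated KO sample was raised, and 6 had a WT value of at least 100: Mx1, Klrc1, Ifitm1, Klrd1, Il1rl1 (the interleukin-33 receptor) and Nfil3 (a basic leucine zipper factor needed for NK cell development). Among the 199 genes with all 4 values at least 100, the counts were 5 higher (2.51%) and 4 lower (2.01%) after IR, and 1 higher (0.503%) and 9 lower (4.52%) without IR. Genes with a mean under 50 had a median log2 ratio of 1.78 after IR (181 genes) and 0.16 without (263 genes), and those with a mean of at least 200 had −0.23 (182 genes) and −0.26 (153 genes).

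The largest ratios after IR belonged to genes near the bottom of the scale in the other 3 samples. The probe named Ifna1, for an interferon-α, was at 907 in irradiated KO against 3.25 in irradiated WT tumors, and at 2.48 in KO against 1.77 in WT tumors without IR. The interferon-α genes are nearly identical, and which of them this probe counts is uncertain. Ifnb1, interferon-β, was at 187 (KO) against 4.07 (WT) with IR and 2.48 (KO) against 1.77 (WT) without, and Il28a, a type III interferon, at 117 (KO) against 1 (WT) and 2.48 (KO) against 1.18 (WT). Ccl19, the chemokine that draws CCR7-bearing cells into lymphoid tissue, was at 233 (KO) against 2.44 (WT) with IR and 3.72 (KO) against 6.49 (WT) without. Tbx21, the T-bet transcription factor, was at 109.95 (KO) against 1.63 (WT) with IR and 23.6 (KO) against 1 (WT) without, and Ifng, interferon-γ, at 197 (KO) against 18.7 (WT) and 2.48 (KO) against 11.2 (WT).

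With 115 of the 561 genes under 50 in that sample, a value near 100 is not by itself a mark of the gene. B cell markers illustrate this. Of 16 measured, 9 were considered after IR and 8 of these were at least 2-fold higher in KO, with Ms4a1 (CD20) at 97.9 (KO) against 1 (WT). Without IR Ms4a1 was at 8.68 (KO) against 6.49 (WT), and Btla was the 1 marker considered. The summed level of the list was 884 in irradiated KO against 186 in irradiated WT tumors, and 172 in KO against 188 in WT tumors without IR. The median over all genes in the irradiated KO sample was 117, and 80% of them lay under 320.19, so Ifna1 and Mx1 stood above most of the panel, Ccl19, Ifng and Ifnb1 between these values, and Il28a at the median. Whether the low genes reflect transcript or the raised low end of this sample cannot be told apart with 1 sample.

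The few large falls after IR were well measured. Besides Ctsc, Cx3cr1 and Ccl12 they were Masp1, a protease of the lectin complement pathway, at 117 (KO) against 272 (WT) with IR and 172 (KO) against 173 (WT) without, and Il7, the lymphocyte survival cytokine, at 236 (KO) against 502 (WT) with IR and 272 (KO) against 281 (WT) without. For both, the irradiated WT sample was the high one and the other 3 lay closer together.

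The 5 genes were then read in the 2 other tumor models, each scaled to its own reference sum, so only ratios within a model are given. Ctsc was lower in KO in all 6 comparisons: the log2 ratios in irradiated and non-irradiated tumors were −0.99 ± 0.27 and −1.45 ± 0.23 in MC38 and −1.92 ± 0.18 and −0.89 ± 0.53 in KPC. Mx1 was higher in KO with IR in all 3 models (0.60 ± 0.19 in MC38 and 1.95 ± 0.19 in KPC). Without IR its ratio was 0.41 ± 0.26 in MC38 and −0.02 ± 1.28 in KPC, so the opposite sign was seen outside counting error in Pan02 alone. Cxcl12 was higher in KO in irradiated KPC (1.58 ± 0.42) and in MC38 without IR (3.70 ± 0.42) but lower in irradiated MC38 (−1.18 ± 0.35). Serping1 had the same pattern, with 1.71 ± 0.37, 3.35 ± 0.44 and −1.76 ± 0.30. Differences between models were not tested, there being 1 sample per condition in each.

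**Figure D5:**
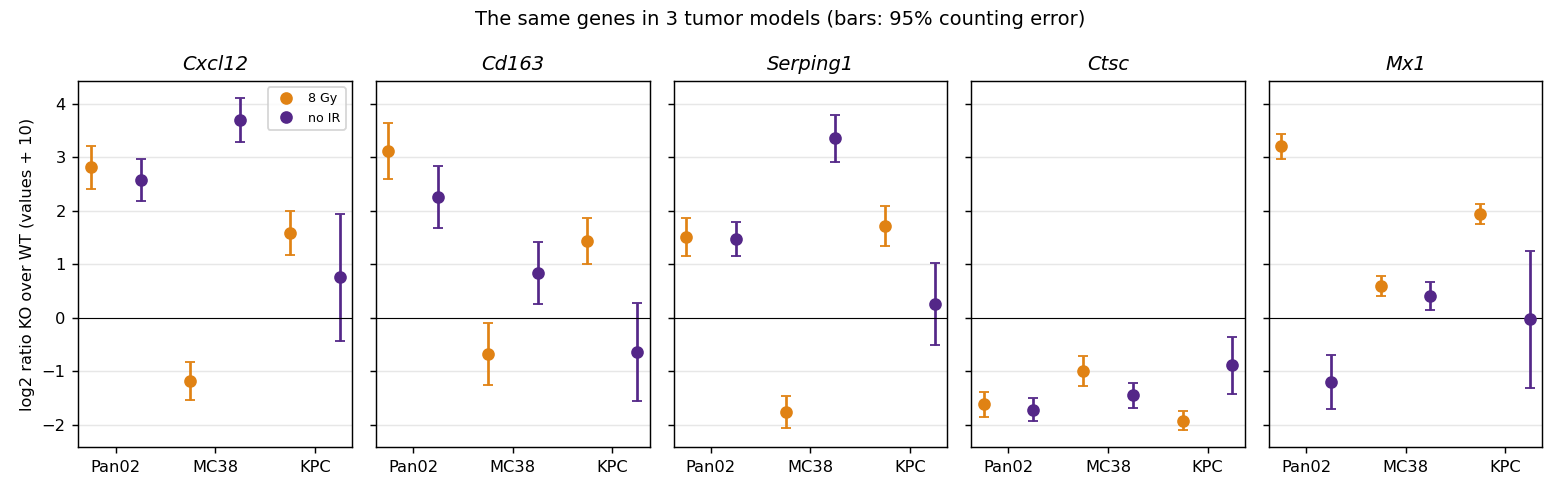
log2 ratio KO over WT (y axis) of the 5 genes in Pan02, MC38 and KPC tumors (x axis), orange for 8 Gy and purple for no irradiation, each point 1 pooled sample against 1, with bars for the 95% counting half-width. Ctsc lies below 0 in all 6 comparisons (−1.92 to −0.89), Mx1 lies above 0 with 8 Gy in each model, and Cxcl12, Cd163 and Serping1 lie below 0 in irradiated MC38.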

How the data were processed

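Tumor RNA was counted on the nCounter instrument. The deposited signal is a table of normalized counts per gene, which the authors made in nSolver 2.6 by deducting the background of 8 negative controls and applying a factor from 6 positive controls. Their methods name no reference-gene scaling, but the 14 reference genes summed to the same value in the 4 samples of each tumor model. The 2 deposited tables were identical in 6732 gene values, so 1 was used, and 0 columns were left unmapped. Gene symbols are those of the panel: 545 are current in GRCm38.p6, 14 are older names and 2 were not found.

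The value of 1 count was read from the steps between low values (tolerance 0.1 count) and gave the 95% counting intervals. Net counts ran from 79209 to 403442 in the Pan02 samples. Ratios used a pseudocount of 10, a minimum of 50 for the larger value and a 2-fold limit. On log2(value + 10), a model with genotype and irradiation as terms was fitted in limma 3.58.1 under R 4.3.3 (eBayes with a variance trend, Benjamini-Hochberg adjustment), at a threshold of 0.05. The script was tested on simulated data. Promoter sequences are from RefSeq.

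The genes described and the 30 gene lists were chosen with earlier results of these data known. Genes were named by rule: those past the fold limit in both states or switching, those past the limma threshold, the leading genes per direction and state, and up to 4 members per list with the largest mean ratio, to which members needed to describe a list were added after their values were seen. The alternatives were other scalings (1 of them, the sum of the 13 reference genes other than Gapdh, chosen after seeing the data), pseudocounts of 1 and 50, other filters, a floor of 50, no irradiation term, no variance trend, all 12 samples, and leaving out each sample. The fits with 1 sample left out had no irradiation term.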

Additional observations from a re-analysis of the deposited data

Results flagged for a closer look

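The KO over WT ratio had opposite signs in the 2 irradiation states, each outside counting error, for 14 of the genes singled out. The difference between states (irradiated minus not, log2) was 4.40 for Mx1, 3.07 for Fkbp5, 2.48 for Ebi3, 1.65 for Tap1, 1.43 for Irf7, 1.19 for Ccl5, 1.18 for Nfkbia, 1.06 for Cfb, 1.01 for Cxcl10 and 0.95 for Tlr8, all lower in KO without irradiation and higher after it. It was −0.83 for Il4ra, −0.82 for Il1rn and −0.77 for both Src and Ahr, which ran the other way. With 1 pooled sample per condition none of these differences was tested. Over all 314 genes the median ratio was itself higher with irradiation (−0.08) than without (−0.33). For Ahr the ratio with irradiation (−0.43) was near the median of the reference genes (−0.40), so the sign of such small deficits can depend on scaling.

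The 3 genes higher in KO in both Pan02 states were lower in KO in irradiated MC38 tumors, with log2 ratios of −1.76 for Serping1, −1.18 for Cxcl12 and −0.67 for Cd163. The difference between tumor models was not tested. Neither tumor model has more than 1 sample per condition.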

How the results depend on the processing

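Over the alternatives run, Ctsc stayed the 1 gene at least 2-fold lower in both states, and 0 genes were higher without and lower after irradiation. The 3 genes higher in both became 9 with the geometric mean of the reference genes, 10 with the median ratio, 9 with the sum of 13, 13 with no filter and 0 with all 4 values at least 100. Mx1, the 1 switch, became 0 genes with the first 2 of these scalings, with a pseudocount of 50 or with all 4 values at least 100, 5 genes with a pseudocount of 1 and 11 with no filter; with the sum of 13 it was Fkbp5 in place of Mx1. Without irradiation the 5 higher became 12, 15 and 11 under the 3 scalings (geometric mean, median ratio, sum of 13), 17 with no filter, 1 with all 4 at least 100 and 3 with a floor of 50, and the 30 lower became 19 with the median ratio, 13 with a pseudocount of 50 and 9 with all 4 at least 100. After irradiation the 146 higher became 93 with a pseudocount of 50, 42 with a floor of 50 and 5 with all 4 at least 100, and the 5 lower became 3 with the geometric mean or a pseudocount of 50 and 2 with the sum of 13. Of the genes named by rule and considered in both states, 71 had the same sign in both, against 118 with no filter, where more genes are compared. Gene lists with a median above 0 numbered 4 without irradiation, against 10, 12 and 10 under the 3 scalings and 7 with no filter, and 21 after it, against 8 with all 4 at least 100.

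The limma counts (4 higher, 13 lower) became 9 and 1, 8 and 1, and 7 and 1 under the 3 scalings. A pseudocount of 50 gave 8 higher. No irradiation term, which removes the pairing of samples by state, gave 1 and 1. No variance trend gave 0 and 0 (unadjusted p under 0.05: 7 and 1), no filter 0 and 0 (6 and 34), and all 4 values at least 100 gave 0 and 0 (7 and 24). All 12 samples gave 4 higher (Cxcl12, one of the 4 above, with Cd163, Gzmb and Ifna1) and 1 lower, Ctsc. Mx1 passed with the first 2 scalings and with a pseudocount of 50. Leaving out 1 sample gave 0 to 81 higher and 0 to 2 lower. The 81 came without the KO sample that was not irradiated, when the irradiated KO sample alone stands for KO, and 1 of them was among the 4. Without the irradiated KO sample 0 genes passed (38 and 45 unadjusted), and the fold change of Mx1 over both states reversed to −1.15, within −1.15 to 3.15 over the samples left out. The adjusted p of Ctsc ranged from 4.97e-14 to 0.693, and that of Cxcl12 from 7.38e-07 to 0.693. The cause of these changes was not tested. The count model listed among the alternatives was not run, because the recovered counts of both KO samples were not whole numbers. Labels give each condition 1 sample, so no replicate block exists besides the irradiation state. Depth limits most the KO samples, in which 3 counts are 7.25 and 7.44 normalized counts, against 2.44 and 1.77 in WT.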

Other observations

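The share of all 314 genes that were lower in KO without irradiation and higher after it was 29.3%, and several immune gene groups outside the comparisons above are given beside it. Checkpoint receptors and ligands had 5 members considered in both states, 4 of them lower in KO without irradiation and higher after it, with medians of 0.65 with irradiation and −0.21 without. This switch depends on scaling. With the geometric mean of the reference genes, the median ratio and the sum of 13, 6 members were considered, and 3, 4 and 3 were higher in both. Their median without irradiation was then 0.02, 0.11 and 0.03. Of 7 co-stimulatory molecules 4 were lower in KO without irradiation and higher after it, with medians of 0.63 with irradiation and −0.47 without. Pattern recognition and NF-κB genes, 27 in number, had 11 that switched this way, 8 lower in both states and 5 higher in both, with medians of 0.08 and −0.37. The same shift is present in all 314 genes, whose medians were −0.08 and −0.33. Integrins had 3 of 8 switching and 4 lower in both, with Itgal, the LFA-1 chain, at 192 in irradiated KO against 174 in irradiated WT tumors and 98.02 in KO against 216 in WT tumors without irradiation.

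In the complement system the inhibitor and the components parted. Serping1 was 3.07-fold and 2.96-fold higher in KO, whereas C3, the central component, was at 1485 (KO) against 1668 (WT) with irradiation and 1078 (KO) against 1787 (WT) without. Of 13 complement genes considered in both states, 2 were higher in both (Serping1 and C1s), 5 lower in both and 5 lower without and higher after irradiation.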
